A study of Mus musculus with 6 samples.

Results

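Genes of the integrated stress response were followed through the cells of the embryonic mouse retina: Atf4, Ddit3, Atf3, Jun, Asns, Chac1, Trib3, Slc7a3, Nupr1 and Ppp1r15a. They are 10 of the 27998 genes counted, and several were chosen by their measured UMI levels, because these stood higher in ganglion cells of retinas without Atoh7. Their ganglion cell levels against the Bax null group are therefore given below as a description, with no test. Retinas were taken at embryonic day 14 and their single-cell transcriptomes were read on the 10x Genomics platform (3' version 2 chemistry). The labels describe 3 groups of 2 libraries each. The first is Bax het Atoh7 null, heterozygous for Bax and null for Atoh7, called the Atoh7 mutant here as in the genotype field of the labels. The second, the Bax mutant, is Bax null, null for Bax with wild-type Atoh7. The third, the double mutant, is Bax null Atoh7 null, null for both. All groups thus carry at least 1 mutant Bax allele, and none has both genes intact. Nothing in the labels says how many retinas, animals or litters a library came from, so p-values measure the spread between these libraries, which may be technical. Unique molecular identifier (UMI) counts were summed per library within each of 5 cell types assigned by the authors: ganglion, neurogenic, progenitor, cone and horizontal cells. Levels are given as CPM, a gene's UMIs relative to all UMIs of that cell type, after TMM scaling between libraries (trimmed mean of M values).

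The 6 libraries held 67050 cells, 7357 of them ganglion cells, with between 667 and 1772 ganglion cells and between 1913889 and 10906998 ganglion cell UMIs per library. Atoh7 had 0 UMIs in the 4 Atoh7 null libraries, and 376 and 458 in the Bax mutant libraries. Over all cells, Bax stood at 144 and 108 CPM in the Atoh7 mutant, at 17.1 and 15.0 CPM in the Bax mutant, and at 47.7 and 11 CPM in the double mutant, so the library labelled double mutant replicate 1 lay between the others. Ftl1, a ferritin gene 1.813 kb from Bax on chromosome 7, stood at 1682 and 1272 CPM, 92.9 and 144 CPM, and 494 and 40.3 CPM in the same order. Of the cells with barcodes of their own, 47.6% had an Ftl1 UMI in that library and 5.90% in replicate 2, at medians of 2109 and 1470 UMIs. What sets this library apart, its Bax genotype included, was not tested. Main differences between the double mutant and the Atoh7 mutant are therefore also given without this library. The Bax mutant libraries stood apart in all cell types: mitochondrial genes took 3.80% and 3.90% of their UMIs, against 1.06% to 1.15% elsewhere, and their cells were deeper, with medians of 5661 and 6804 UMIs against 1634 to 2632. Genotype at Atoh7 and this difference between libraries cannot be told apart. The 2 double mutant libraries shared 2596 cell barcodes, 17.6% of the cells of replicate 1 and 22% of those of replicate 2, and 89.4% of the shared barcodes had the same cell type in both. The other 14 pairs of libraries shared 126 to 223 barcodes, with the same cell type for 34.3% to 46.0% of them. For 87.0% of the 2596 shared barcodes, the UMIs in replicate 1 were 0.3 to 0.4 of those in replicate 2. Whether the same cells lie in both was not tested. The 2 double mutant libraries may thus not be independent, and the standard errors and p-values do not allow for this. Fits were also computed with the shared barcodes removed from replicate 1.

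The integrated stress response is set off when kinases that sense amino acid shortage, misfolded protein, double-stranded RNA or lack of heme phosphorylate the translation factor eIF2. Most translation then slows, while the mRNA of Atf4 is translated more. ATF4 protein, often paired with a C/EBP protein, switches on genes of amino acid synthesis and import together with further transcription factors, among them Ddit3, also called CHOP, and Atf3. In retinal ganglion cells this response and JUN are known from injury of the axon, where they precede cell death. Bax encodes an effector of that death, and Atoh7 a transcription factor of the progenitors that form ganglion cells.

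Promoter sequence shows what several members share apart from their levels. RefSeq promoters (GRCm38.p6; 250 bases before to 50 after the start) were matched for 9 of the 10 members; Slc7a3 was not matched. The C/EBP-ATF response element, searched as TGATGNAA on both strands, lay in 5 of these 9 promoters (55.6%; Asns, Atf3, Chac1, Nupr1 and Trib3). It lay in 3.97% of all 32841 windows of the same length. The cyclic AMP response element TGACGTCA lay in 1 of the 9, that of Ppp1r15a, and in 1.79% of all windows. The AP-1 element TGANTCA, the site of JUN dimers, lay in 1 of the 9, that of Ddit3, and in 7.81% of all windows. No 1 of the 3 strings of letters contains another. These are matches of letters, not measured binding. The stretches around 6 of the matches are shown because they are the letters on which these counts rest, each 5′ to 3′ on the strand of its gene, with the match in capitals.
Atf3, chr1:191183396-191183483, minus strand: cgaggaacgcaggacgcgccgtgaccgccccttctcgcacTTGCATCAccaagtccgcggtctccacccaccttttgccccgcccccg
Chac1, chr2:119351009-119351096, plus strand: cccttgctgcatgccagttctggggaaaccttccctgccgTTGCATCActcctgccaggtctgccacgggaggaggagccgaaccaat
Nupr1, chr7:126625533-126625620, minus strand: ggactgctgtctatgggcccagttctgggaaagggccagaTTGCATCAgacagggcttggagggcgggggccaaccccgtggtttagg
Asns, chr6:7693210-7693272, minus strand: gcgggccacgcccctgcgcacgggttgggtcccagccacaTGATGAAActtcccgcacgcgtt
Ppp1r15a, chr7:45526269-45526320, minus strand: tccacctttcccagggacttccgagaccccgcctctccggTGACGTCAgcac
Ddit3, chr10:127290543-127290597, plus strand: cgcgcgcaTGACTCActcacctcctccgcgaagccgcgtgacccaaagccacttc
Atf3, Chac1 and Nupr1 carry the same 8 letters, TTGCATCA, which is the element read on the other strand. The match lies 110 bases before the start in Atf3 and in Nupr1, 193 bases in Chac1 and 23 bases in Asns.

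In ganglion cells the transcription factors of the response did not share 1 pattern. Atf4, at its head (chromosome 15, 80255184 to 80257541 of GRCm38, plus strand), stood at 191 and 196 CPM in the Bax mutant, at 151 and 164 CPM in the Atoh7 mutant, and at 239 and 200 CPM in the double mutant. It was thus the 1 member whose Atoh7 null libraries lay on both sides of the Bax mutant libraries. Atf3, a leucine zipper factor that is nearly silent in unstressed neurons (chromosome 1, 191170296 to 191218039), stood at 0.49 and 0.60 CPM in the Bax mutant, which were 4 and 5 UMIs. It stood at 16.3 and 16.8 CPM in the Atoh7 mutant and at 40.4 and 46.1 CPM in the double mutant. The 3 groups did not overlap, and the fitted log2 difference from the Bax mutant was 4.86 in the Atoh7 mutant and 6.24 in the double mutant. Ddit3, a partner of C/EBP proteins tied to cell death under lasting stress (chromosome 10, 127290774 to 127296288), had 38.6 and 38.0 CPM in the Bax mutant, 105 and 81.9 CPM in the Atoh7 mutant and 161 and 144 CPM in the double mutant. Jun, the AP-1 factor activated by JNK kinases (chromosome 4, 95049034 to 95052222), had 89.6 and 80.3 CPM, 208 and 196 CPM, and 250 and 264 CPM in the same order. For both genes the 3 groups stood in the same order as for Atf3, without overlap.

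The members that act in amino acid and redox metabolism stood in that order too. Asns makes asparagine (chromosome 6, 7675169 to 7693254). Its level was 22.9 and 22.3 CPM in the Bax mutant, 76.7 and 83.5 CPM in the Atoh7 mutant and 116 and 121 CPM in the double mutant. Chac1 breaks down glutathione (chromosome 2, 119351229 to 119354381), and had 1.47 and 1.32 CPM, 23.5 and 15.1 CPM, and 37.3 and 26.7 CPM. Slc7a3, an importer of arginine and lysine (chromosome X, 101079210 to 101086020), had 0 and 1 UMI in the Bax mutant libraries, with a floor of 3 UMIs at 0.37 and 0.36 CPM. It reached 14.9 and 7.89 CPM in the Atoh7 mutant and 22.4 and 25.2 CPM in the double mutant, and no fold is given for it.

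The remaining members restrain or accompany the response. Trib3, a pseudokinase that binds and dampens ATF4 and CHOP (chromosome 2, 152337422 to 152344032), had 1.35 and 1.2 CPM in the Bax mutant, 11.5 and 13.5 CPM in the Atoh7 mutant and 20.01 and 23.4 CPM in the double mutant. Nupr1, a small nuclear protein induced by stress (chromosome 7, 126623249 to 126630861), had 2.08 and 0.24 CPM, 22.5 and 24 CPM, and 31.8 and 35.5 CPM. Ppp1r15a, the subunit that leads a phosphatase back to eIF2 (chromosome 7, 45522916 to 45526268), had 12.9 and 14 CPM, 17.3 and 19.4 CPM, and 30.7 and 24.1 CPM. Of the 10 members, 9 had all 4 Atoh7 null libraries above both Bax mutant libraries, as did 31.6% of the 10586 genes tested, and nothing is read from this count because these values chose the members. In the same cells 52.7% of the genes tested were called between the double mutant and the Bax mutant, and 50% between the Atoh7 mutant and the Bax mutant. These 2 contrasts share the Bax mutant libraries.

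The make-up of the ganglion cell class differed between the groups too. The summed level of 10 ganglion cell markers (plain CPM) was 12257 to 12749 CPM in the Bax mutant, 8316 to 9630 CPM in the Atoh7 mutant and 9174 to 10990 CPM in the double mutant. Markers of neurogenic cells summed to 991 to 1025 CPM, 1719 to 2127 CPM and 2018 to 2044 CPM in the same order, and those of horizontal cells to 523 to 531 CPM, 1275 to 1351 CPM and 1403 to 1535 CPM. Markers of progenitors summed to 480 to 643 CPM in the Bax mutant and to 1029 to 1460 CPM in the 4 other libraries, and the corresponding sums of red blood cell markers were 427 to 490 CPM and 4.39 to 197 CPM. Cone markers summed to 43.6 to 45.3 CPM, 73.1 to 76.7 CPM and 94.0 to 96.7 CPM in the Bax mutant, the Atoh7 mutant and the double mutant. Microglial markers ranged from 6.01 to 20.3 CPM and endothelial markers from 14.6 to 52.8 CPM over the 6 libraries. Markers of amacrine cells, pigment epithelium, lens and mesenchyme each summed to under 6 CPM in every library, and Rpe65, Crygs and Cdh5, defining genes of pigment epithelium, lens and endothelium, were at 0. The part of this make-up in the members' levels was not tested. A sum over cells cannot tell fewer cells with much RNA of a gene from more cells with little.

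**Figure D1:**
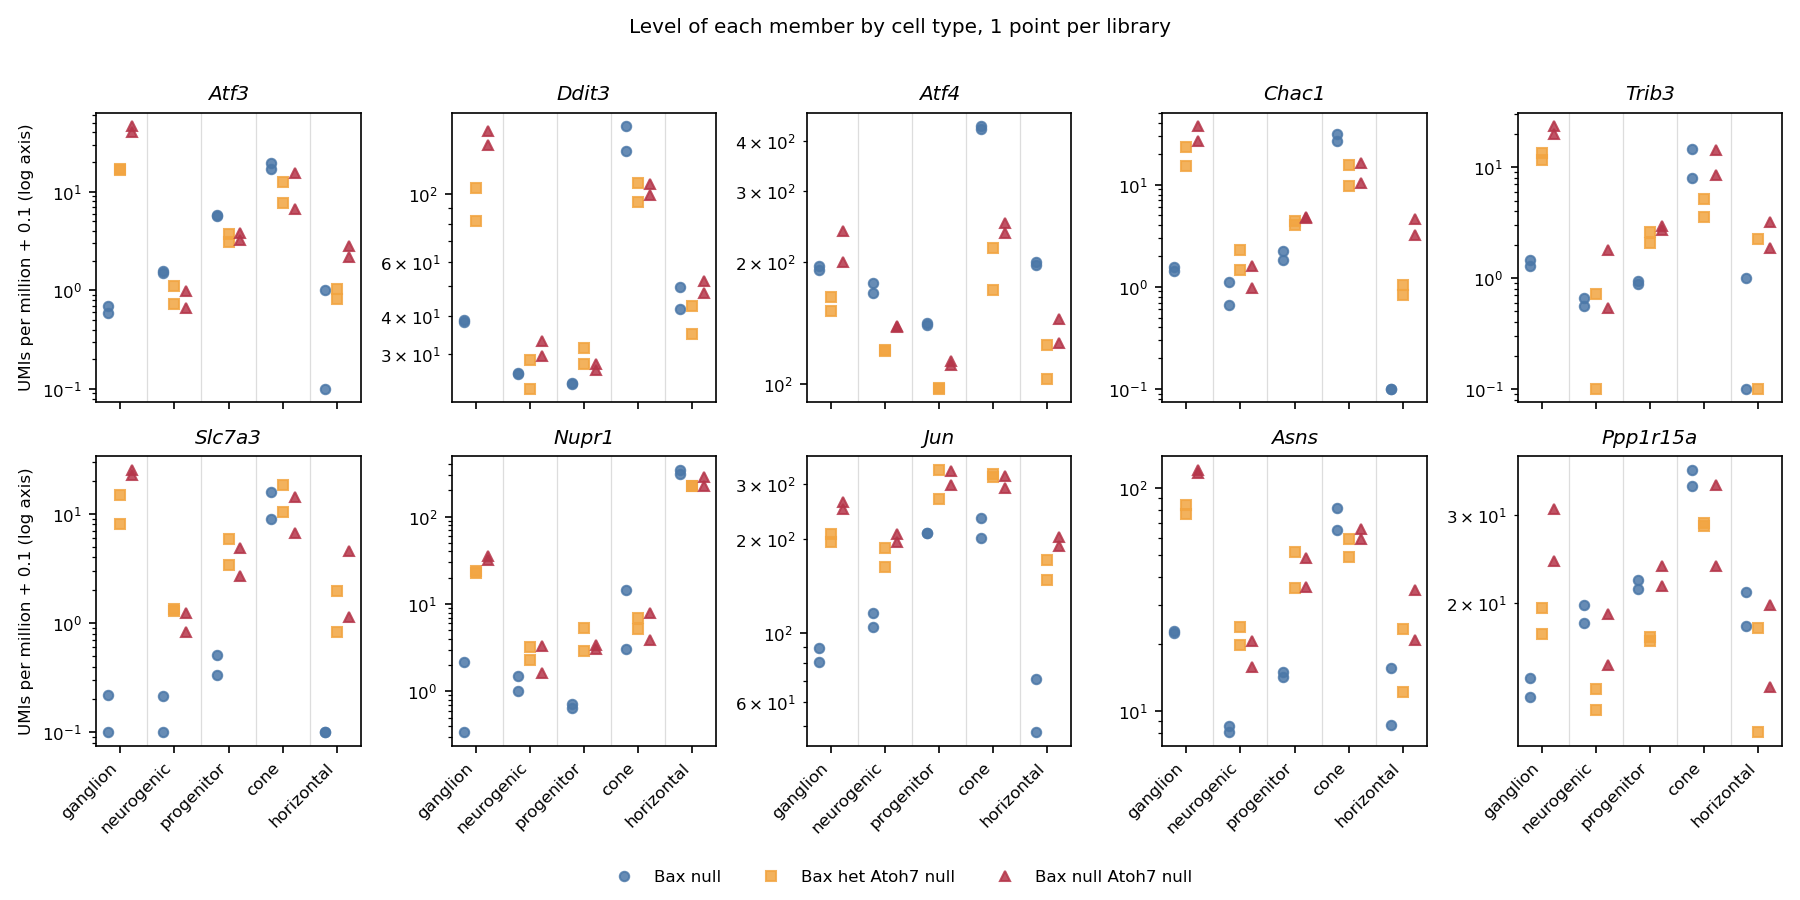
Level of each member (TMM-scaled CPM plus 0.1, log axis) in the 5 cell types, 1 point per library, coloured by group. In ganglion cells the Atoh7 null libraries lie above the Bax mutant libraries for 9 of 10 members, and for 31.6% of all genes tested. Cones hold the highest Bax mutant level, without overlap, for 8 members, and for 15.6% of the genes tested in ganglion cells.

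Among retinas without Atoh7, the double mutant and the Atoh7 mutant differ by label in Bax, null in the first and heterozygous in the second. The choice of members drew on the ganglion cells of these same libraries, and the values of Atf3 and Ddit3 were known beforehand. The member values in ganglion cells are therefore described with no test. All 10 members had both double mutant libraries above both Atoh7 mutant libraries, as did 20% of the genes tested. Their median log2 fold change was 0.65, against 0.00 over all genes tested. In the fit over all genes, 4 of 10 members (Atf3, Ddit3, Asns and Atf4) had an adjusted p under 0.05, where 2.34% of all genes tested were called, 0.246% higher and 2.1% lower. Nothing is read from that count.

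Atf3, with 16.3 and 16.8 CPM in the Atoh7 mutant and 40.4 and 46.1 CPM in the double mutant, had the largest difference of the 10, a log2 fold change of 1.38 (SE 0.17, n = 2 libraries per group). Without the library labelled double mutant replicate 1 it was 1.48, and without the shared barcodes 1.40. Ddit3 was higher by 0.73 on the log2 scale (SE 0.12), and by 0.65 without that library. Asns was higher by 0.56 (SE 0.10), and by 0.59 without it. For Atf4 the difference was 0.48 (SE 0.11) with the library and 0.34 without it.

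The 6 other members had log2 fold changes between 0.35 and 1.14. Slc7a3 had 14.9 and 7.89 CPM against 22.4 and 25.2 CPM, a log2 fold change of 1.14 (SE 0.27). For Trib3 and Chac1 it was 0.78 each, and 0.89 and 0.52 without the library labelled double mutant replicate 1. Jun had 0.35, Ppp1r15a 0.57 and Nupr1 0.52. No gene of a marker list was called in this contrast in edgeR. The summed markers of ganglion, neurogenic and progenitor cells overlapped between the 2 groups, whereas those of horizontal and cone cells, given above, were higher in both double mutant libraries. Their part in the members' values was not tested.

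**Figure D2:**
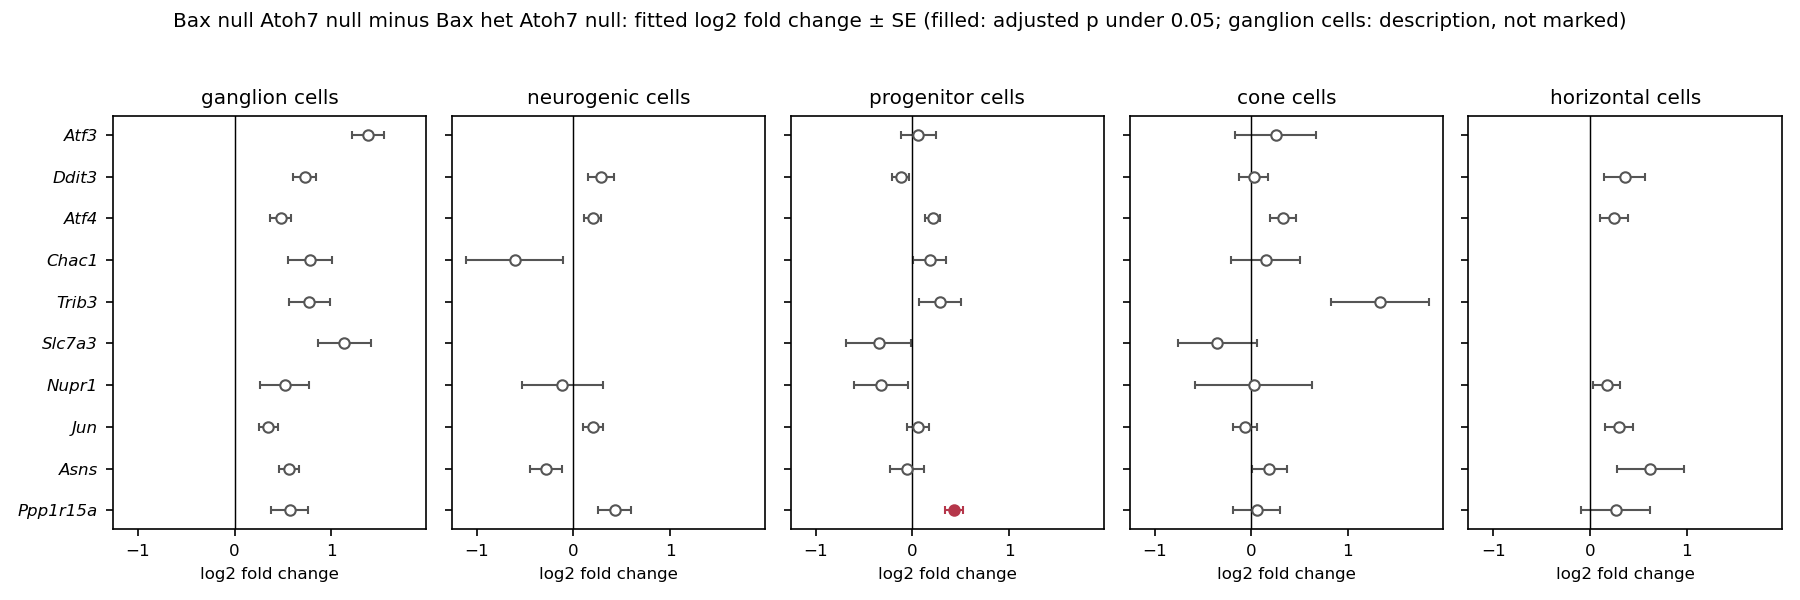
Fitted log2 fold change (points) with its standard error (bars) for each member tested in the 5 cell types, double mutant minus Atoh7 mutant; outside ganglion cells, filled points have an adjusted p under 0.05. The 10 ganglion cell values lie between 0.35 and 1.38, and outside ganglion cells 1 of 33 values is filled.

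Outside ganglion cells the same contrast called 1 of 33 values (edgeR quasi-likelihood test, adjusted p under 0.05). The exception was Ppp1r15a in progenitors, with 16.9 and 16.6 CPM in the Atoh7 mutant and 23.7 and 21.5 CPM in the double mutant (log2 fold change 0.43, SE 0.09, edgeR adjusted p = 0.0489). Ppp1r15a lies 56.0 kb from Bax on chromosome 7, and the call held under 3 of 15 alternatives. Without the library labelled double mutant replicate 1 the value was 0.36 (edgeR adjusted p = 0.106). Of all genes tested, 2.01% were called in progenitors, 1.77% in neurogenic cells, 1.46% in cones and 1.61% in horizontal cells. In cones Trib3 had the largest value, 1.33 (SE 0.51, edgeR adjusted p = 0.352). Atf3, Trib3 and Slc7a3 in neurogenic cells, and Atf3, Chac1, Trib3 and Slc7a3 in horizontal cells, had too few counts to be tested.

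The levels in single cells showed how widely the members were spread. Each cell was thinned to 1000 UMIs, since the libraries differed in depth, and 10 to 80 shallower ganglion cells were left out of 4 libraries. Atf3 was then found in 0 of 1762 and 0 of 1557 ganglion cells of the Bax mutant, which allows shares of cells with an Atf3 UMI at this depth of up to 0.170% and 0.193% (3 cells of the total). This limits cells with a UMI, not cells expressing the gene. It was found in 1.2% and 1.33% of those of the Atoh7 mutant and in 3.73% and 4.81% of those of the double mutant. Unthinned, the shares were 0.17% and 0.19%, 4.05% and 3.22%, and 6.59% and 7.12%. The thinned share was 0.06% to 0.13% in neurogenic cells over the 6 libraries, 0.18% to 0.46% in progenitors and 0.45% to 2.14% in cones. The 4 Atoh7 null ganglion shares lay above all those of neurogenic cells and progenitors.

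Cells holding several members were counted as well. A UMI of at least 3 of the 10 was held by 0.227% and 0.257% of thinned ganglion cells in the Bax mutant, by 4.05% and 4.55% in the Atoh7 mutant and by 8.85% and 10.7% in the double mutant. Cones held such cells at 3.01% to 5.50% in all 6 libraries, horizontal cells at 0.35% to 2.03%, progenitors at 0.12% to 1.24% and neurogenic cells at 0.06% to 0.36%. These shares rise with the level of each member, and the share that independent members would give was not computed. Ganglion cells held on average 0.28 and 0.26 members in the Bax mutant. The mean was 0.58 and 0.56 in the Atoh7 mutant and 0.86 and 0.92 in the double mutant. In the double mutant, Ddit3 was found in 57.5% and 59.6% of the 40 and 52 ganglion cells with Atf3, and in 12.8% and 12.3% of those without. Asns was found in 50% and 44.2% of cells with Atf3 and in 8.81% and 10.1% of cells without. Before thinning, cells with and without Atf3 had medians of 1974 and 2030 UMIs in replicate 1, and of 1844.5 and 1881.5 in replicate 2. Without the shared barcodes, replicate 1 had Atf3 in 4% of its thinned ganglion cells and at least 3 members in 9.44%.

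**Figure D3:**
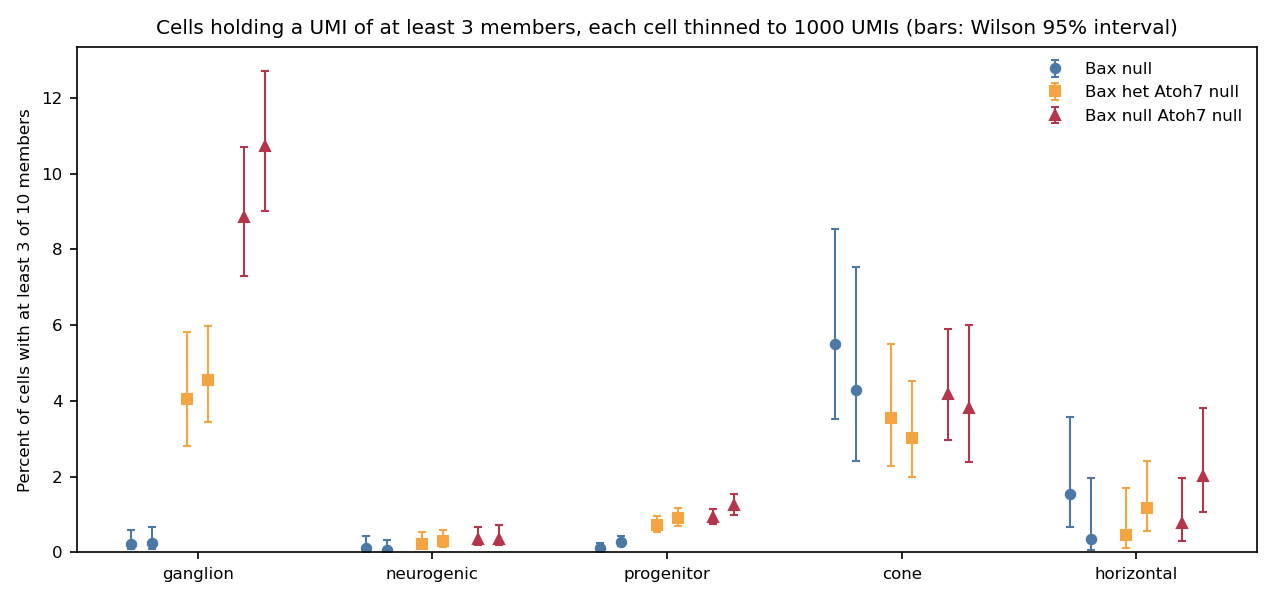
Percent of cells with a UMI of at least 3 of the 10 members after thinning each cell to 1000 UMIs, by cell type, 1 point per library with its Wilson 95% interval, which covers counting error only. Ganglion cells range from 0.227% in the Bax mutant to 10.7% in the double mutant, while the cones of all 6 libraries lie between 3.01% and 5.50%.

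Among the 20 clusters into which the authors had divided the ganglion cells, cluster 62 had the highest summed level of the members. The clusters were made from these genes among others, so what follows describes where the UMIs lay, with plain CPM that are not TMM-scaled. Cluster 62 held 73 and 119 cells of the Atoh7 mutant, 43 and 31 of the Bax mutant, and 191 and 209 of the double mutant. It took 34.2% and 40.1% of the members' ganglion cell UMIs in the Atoh7 mutant, 4.59% and 2.54% in the Bax mutant, and 50.8% and 54.9% in the double mutant. The members summed to 2100 and 2378 CPM inside the cluster in the Atoh7 mutant and to 524 and 453 CPM outside. In the Bax mutant they summed to 534 and 348 CPM inside and 275 and 269 CPM outside, and in the double mutant to 3108 and 3319 CPM inside and 655 and 602 CPM outside. Without the shared barcodes, replicate 1 of the double mutant had 3094 CPM inside and 639 CPM outside.

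Atf3, Chac1, Trib3, Slc7a3 and Nupr1 were the members most gathered there, with 66.0% to 92.9% of their ganglion cell UMIs in the cluster in the 4 Atoh7 null libraries. Atf3 stood at 109 and 135 CPM inside cluster 62 in the Atoh7 mutant, at 11.9 and 0 CPM in the Bax mutant and at 236 and 284 CPM in the double mutant. Outside, it stood at 5.90 and 3.20 CPM, 0.10 and 0.47 CPM, and 5.33 and 4.83 CPM. The cells outside the cluster thus overlapped between the 2 Atoh7 null groups for Atf3, and those inside did not. Over the members, the ratio of the double mutant to Atoh7 mutant had a median of 1.41 inside the cluster, from 1.15 for Nupr1 to 2.13 for Atf3, and 7 members had both double mutant libraries higher. Of all genes tested in ganglion cells 24.5% did, with a median ratio of 1.07. Outside, the median was 1.25, from 0.861 for Nupr1 to 1.87 for Slc7a3, and 5 members had both double mutant libraries higher. There 31.5% of all genes did, with a median ratio of 1.08. Atf4 was spread more evenly, with 24.4% to 37.1% of its UMIs in the cluster in the 4 Atoh7 null libraries, against 70.6% to 92.9% for Atf3.

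**Figure D4:**
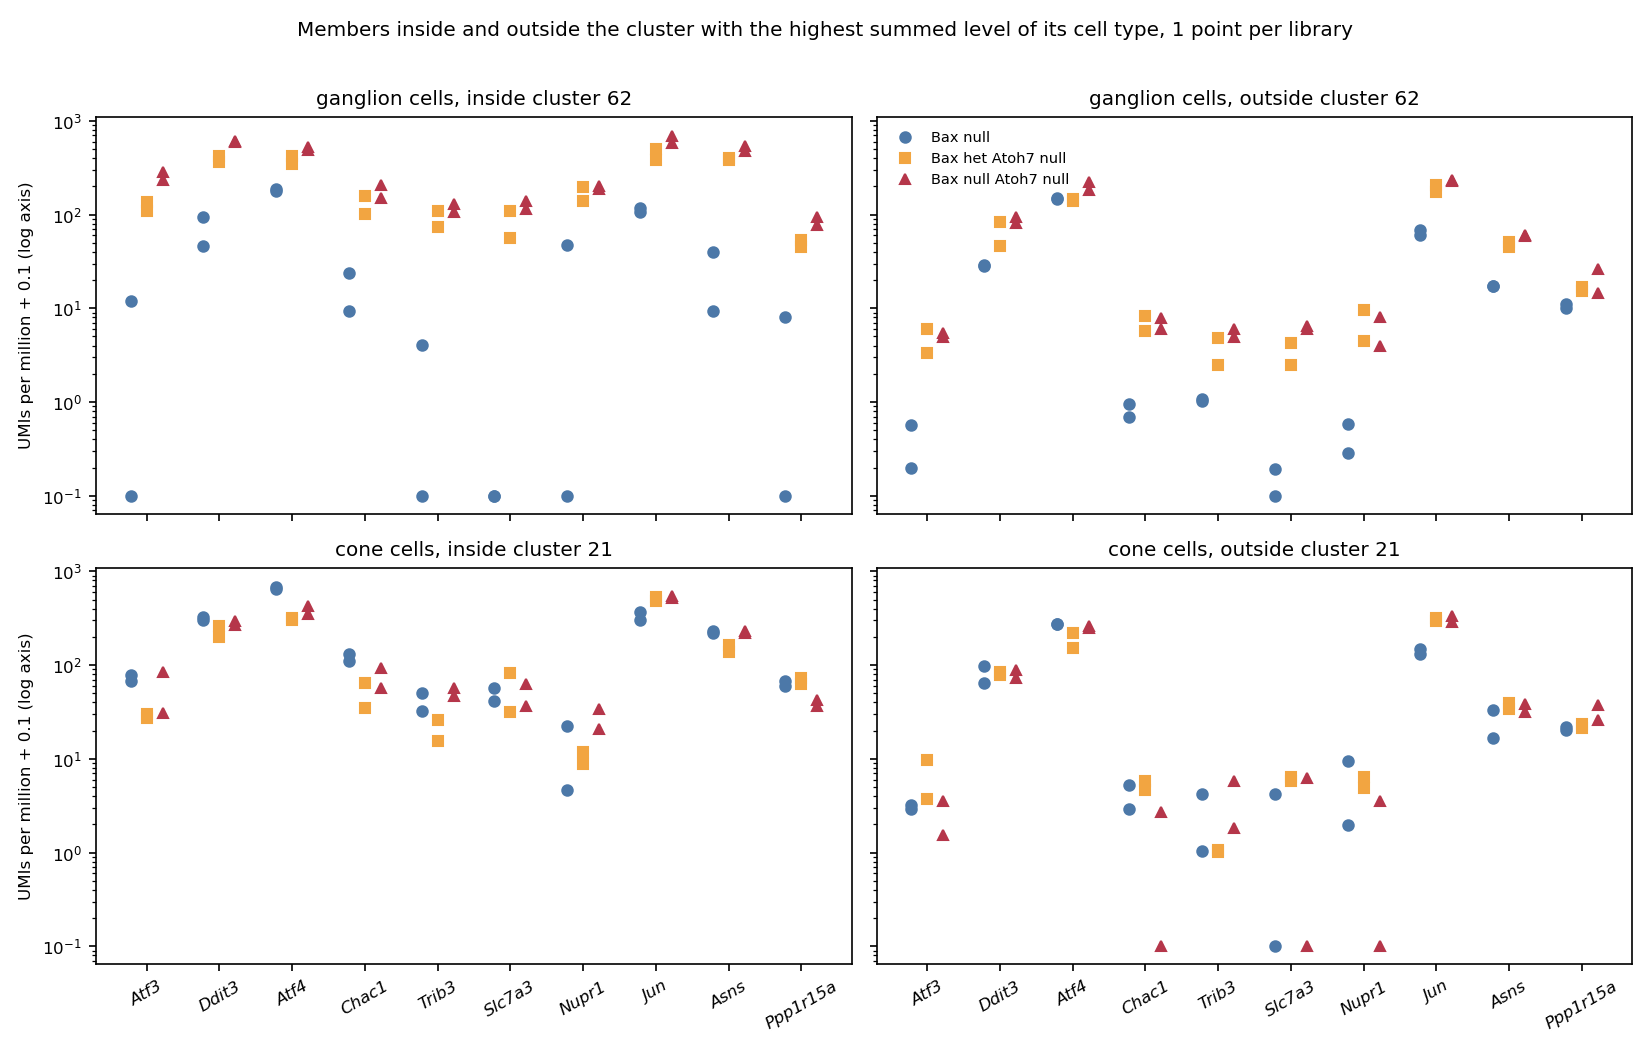
Level of each member (plain CPM, log axis) inside and outside the cluster with the highest summed level, cluster 62 for ganglion cells and cluster 21 for cones, 1 point per library. In ganglion cells Atf3 reaches 236 and 284 CPM inside cluster 62 in the double mutant and about 5 CPM outside it.

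Cones held most members at comparatively high levels in every group. In the Bax mutant libraries cones had the highest level of the 5 types, without overlap, for 8 of 10 members: Atf3, Ddit3, Atf4, Chac1, Trib3, Slc7a3, Asns and Ppp1r15a. The same held for 15.6% of the 10586 genes tested in ganglion cells. Atf4 stood there at 434 and 428 CPM and Atf3 at 19.6 and 16.8 CPM. In the double mutant, ganglion cells had the highest level for 6 members, without overlap with the next type. In the Atoh7 mutant they did so for 3, which were Atf3, Trib3 and Asns. The share of all genes was not computed for these counts. Nothing is read from them, because these ganglion cell values chose several members. The cone and ganglion cell levels of Ddit3, Slc7a3 and Chac1 overlapped in the Atoh7 mutant. Nupr1 was highest in horizontal cells in all 3 groups, at 346 and 306 CPM in the Bax mutant, 222 and 225 CPM in the Atoh7 mutant and 223 and 282 CPM in the double mutant. Jun was highest in cones or progenitors, which overlapped. Atf4 and Ppp1r15a were highest in cones in all 3 groups, overlapping with ganglion cells in the double mutant. Cluster 21 of the cones was the counterpart of cluster 62: the members summed to 1854 and 1952 CPM inside it in the Bax mutant, 1474 and 1390 CPM in the Atoh7 mutant and 1829 and 1617 CPM in the double mutant.

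The contrasts with Bax mutant could be tested in the 4 other cell types, where the members were not chosen, although they carry the difference between libraries described above. Of 33 values tested for double mutant minus Bax mutant, 11 were called higher and 8 lower in edgeR, beside 20.1% and 21.3% of all values tested in these types. All genes tested were called at 53.9% in progenitors, 47.3% in neurogenic cells, 28.1% in cones and 29.2% in horizontal cells. For Atoh7 mutant minus Bax mutant, 12 were called higher and 10 lower, beside 20.2% and 21% of all values. By type the shares of all genes called were 53.1%, 47.1%, 27.5% and 30.2%. The 2 contrasts share the Bax mutant libraries, and a share of calls near these backgrounds is no result about the members.

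In progenitors Asns, Slc7a3, Nupr1, Trib3, Chac1 and Jun were called higher in both contrasts. Asns had 14.9 and 14.2 CPM in the Bax mutant, 35.7 and 51.7 CPM in the Atoh7 mutant and 35.9 and 48.6 CPM in the double mutant, and its log2 difference between the double mutant and the Bax mutant was 1.53 (SE 0.19, edgeR adjusted p = 0.000152). Slc7a3 had 0.41 and 0.24 CPM in the Bax mutant and 2.59 and 4.73 CPM in the double mutant, a log2 difference of 3.44 (SE 0.48). It passed the count filter in progenitors only through the Atoh7 null groups, so nothing is read from its calls. Atf3 and Atf4 went the other way there. Atf3 fell from 5.62 and 5.71 CPM in the Bax mutant to 3.64 and 3 CPM in the Atoh7 mutant and 3.72 and 3.17 CPM in the double mutant (log2 fold change -0.70 for the last, edgeR adjusted p = 0.00569). Atf4 fell from 142 and 140 CPM to 97.1 and 97.5 CPM and to 111 and 114 CPM (log2 fold change -0.32 for the last, edgeR adjusted p = 0.00491).

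In cones Atf4, Chac1 and Ddit3 were lower in both contrasts. Atf4 fell from 434 and 428 CPM in the Bax mutant to 217 and 170 CPM in the Atoh7 mutant and 250 and 236 CPM in the double mutant, log2 fold changes of -1.16 and -0.82 (edgeR adjusted p = 1.827e-06 and 8.367e-05). Chac1 fell from 26.5 and 31.4 CPM to 15.3 and 9.61 CPM and to 16.2 and 10.4 CPM, and Ddit3 from 138 and 167 CPM to 109 and 94.1 CPM and to 99.1 and 108 CPM. Neither gene overlapped between the Bax mutant and the other libraries in cones. Jun was called higher in all 4 other cell types in both contrasts, from a log2 difference of 0.49 in cones to 1.73 in horizontal cells for double mutant minus Bax mutant. Atf4 was called lower in all 4, from -0.32 to -0.82 in the same contrast. In ganglion cells Atf4 had 0.18 in that contrast and -0.29 for the Atoh7 mutant, given as a description.

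Ganglion cells were also compared with progenitors of the same library. Differences between libraries that act unequally on the 2 cell types would remain in these values, and this was not tested. In the Bax mutant, Atf3 was lower in ganglion cells than in progenitors by a log2 difference of -3.25 and -3.05, while in the Atoh7 null libraries it was higher, by 2.05 and 2.36 in the Atoh7 mutant and 3.34 and 3.75 in the double mutant. Chac1 had -0.56 and -0.43 in the Bax mutant, 2.47 and 1.72 in the Atoh7 mutant and 2.92 and 2.42 in the double mutant. Ddit3 was higher in ganglion cells in all 6 libraries, by 0.62 and 0.58, 1.66 and 1.49, and 2.48 and 2.39. Jun was lower in ganglion cells in all 6, by -1.29 and -1.46 in the Bax mutant, -0.76 and -0.53 in the Atoh7 mutant and -0.31 and -0.38 in the double mutant. Because the choice of members used the ganglion cells, these values are given between groups with no test.

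The fitted mean differences within the Bax mutant libraries are given as a description too. Asns (0.55), Ddit3 (0.60) and Atf4 (0.38) were higher in ganglion cells. Atf3 (-3.15, with the limit given above), Jun (-1.38) and Ppp1r15a (-0.76) were lower. Over the alternatives, neurogenic cells as the reference included, Atf3 ranged from -4.23 to -1.01. Jun ranged from -1.47 to -0.38 and Ppp1r15a from -0.85 to -0.14. Slc7a3, with 0 and 1 UMI in these ganglion cells, is given no value, since it would depend on the prior count. The change of the difference between the double mutant and the Atoh7 mutant was called for 0% of 13670 genes by limma, with 1152 genes at an unadjusted p under 0.05, 6 of them members. edgeR with the library as a term called 14 genes, 4 of them members. Nothing is read from these counts of members.

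**Figure D5:**
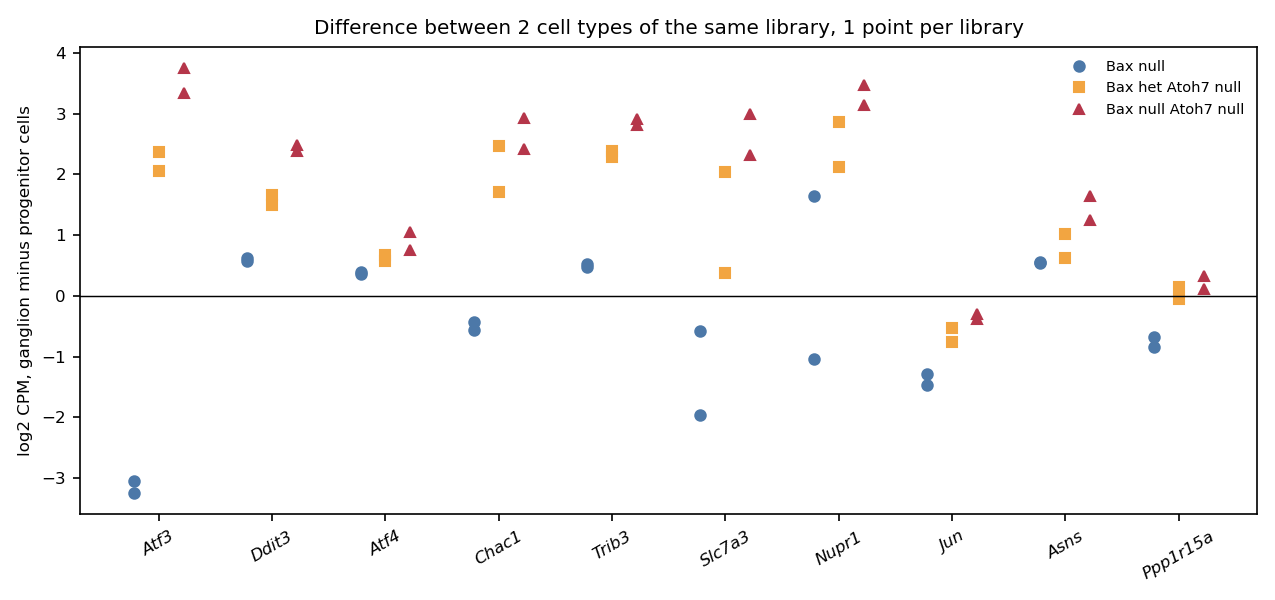
Log2 CPM in ganglion cells minus progenitors of the same library for each member, 1 point per library, coloured by group. Atf3 lies at -3.25 and -3.05 in the Bax mutant, where it rests on few ganglion cell UMIs, and between 2.05 and 3.75 in the other 4 libraries. Jun lies below 0 in all 6.

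The wider pathway was followed with a list of 48 other genes of eIF2 signalling and ATF4 targets, chosen with earlier results of these data known, of which 44 were tested in ganglion cells. For double mutant minus Atoh7 mutant, 7 were called higher and 1 lower in edgeR, with a median log2 fold change of 0.32. Of all genes tested, 0.246% were called higher and 2.1% lower. DESeq2 called 4 genes of the list. Nothing is read from these counts, because the list was chosen with earlier results known. The adjusted p-values of the listed genes named below carry the same limit. Cebpb, a C/EBP partner of ATF4, had 0.96 and 3.95 CPM in the Atoh7 mutant and 9.32 and 19.7 CPM in the double mutant. Its log2 fold change was 2.40 (SE 0.50). Cebpb was among the called genes, but of the groups compared only the double mutant had both libraries above the count filter. Nothing is read from the call of Cebpb. Its call was lost under 4 of 14 alternatives: only the 4 libraries compared (2.40), without either Atoh7 mutant library (1.86 without replicate 1 and 3.88 without replicate 2) and without double mutant replicate 2 (1.77). Atf5, a relative of Atf4, had 62.3 and 58.8 CPM against 99.7 and 121 CPM, a log2 fold change of 0.87 (SE 0.14, edgeR adjusted p = 0.00509). Bbc3, which encodes the cell death activator PUMA upstream of BAX, had 64.7 and 64.4 CPM against 108 and 110 CPM, a log2 fold change of 0.76 (SE 0.11, edgeR adjusted p = 0.0023). Nars, an asparagine transfer RNA ligase, was the 1 lower gene, with 192 and 200 CPM against 144 and 149 CPM (log2 fold change -0.42, edgeR adjusted p = 0.0288), and its call held under 8 of 15 alternatives. The Atf5 call was lost without Atoh7 mutant replicate 2. Bbc3 was called under all 15 alternatives, and in the Bax mutant it stood at 94.7 and 102 CPM, above Atoh7 mutant.

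Against the Bax mutant, 35 pathway genes were called higher and 2 lower in the ganglion cells of the double mutant, with a median of 1.24, beside 26.2% and 26.5% of all genes. In the Atoh7 mutant 33 were called higher and 4 lower, with a median of 0.77, beside 25% and 25% of all genes. Nothing is read from these counts, because the list was chosen with earlier results known and these comparisons chose several members. Sesn2, a sensor of leucine that restrains growth signalling, rose from 1.10 and 1.56 CPM in the Bax mutant to 16.3 and 17.8 CPM in the Atoh7 mutant and 21 and 32.5 CPM in the double mutant. Slc7a11, a cystine importer, rose from 0.49 and 0.60 CPM to 4.79 and 8.55 CPM and to 8.97 and 13.5 CPM. Slc6a9, a glycine transporter, rose from 0.49 and 0.48 CPM to 7.19 and 7.89 CPM and to 8.97 and 10.2 CPM. Sesn2, Slc7a11 and Slc6a9 were low in the Bax mutant and passed the count filter only through the Atoh7 null groups. Eif2s1, the subunit of eIF2 that is phosphorylated, was called lower in both, with log2 differences of -0.58 in the double mutant and -0.54 in the Atoh7 mutant.

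Chaperones of the endoplasmic reticulum, targets of the ATF6 and XBP1 branches of the unfolded protein response, formed a separate list. Of 20 tested, edgeR called 0 for double mutant minus Atoh7 mutant, with 3 at an unadjusted p under 0.05 and 0 called by DESeq2, and the median log2 fold change was -0.08. Against the Bax mutant, 3 were called higher and 10 lower in the double mutant, beside 26.2% and 26.5% of all genes. Sdf2l1 fell from 59.8 and 73.3 CPM in the Bax mutant to 28.6 and 24.5 CPM, Manf fell from 400.4 and 410.1 CPM to 225 and 196 CPM, and Canx rose from 136 and 123 CPM to 232 and 214 CPM. Of 14 genes of axon injury and JNK signalling, 1 was called higher between the Atoh7 null groups, Hrk, another cell death activator, with 6.71 and 8.55 CPM against 14.5 and 23.0 CPM (log2 fold change 1.26, edgeR adjusted p = 0.0426). That call was lost under 11 of 15 alternatives, and 0.246% of all genes were called higher in that contrast. Of 14 immediate early and heat shock genes edgeR called 0, with 3 at an unadjusted p under 0.05 and 0 by DESeq2. Against the Bax mutant, 4 of them were called higher and 4 lower in the double mutant, beside the same 26.2% and 26.5% of all genes. Nothing is read from the counts of these lists, which were chosen with earlier results known. Klf4 rose from 2.45 and 1.68 CPM to 18.3 and 8.41 CPM in the double mutant, whereas Egr1 fell from 67.7 and 64.0 CPM to 34.5 and 25.2 CPM. Klf4, too, passed the count filter only through the Atoh7 null groups.

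Across the 30 sums of 6 libraries and 5 cell types, which share libraries and depth, the members followed each other unequally. The correlation of log2 CPM was 0.91 between Atf3 and Chac1 and 0.92 between Chac1 and Asns, whereas Nupr1 had values from -0.29 to 0.25 with the other members. Among 11545 genes with at least 5 CPM in a group and type, the genes most like the mean of the members were Slc3a2 (Pearson r 0.94), Herpud1 (0.89), Trim66 (0.86), Pck2 (0.85) and Pycr1 (0.84). Those most like Atf3 alone were Slc7a11 (0.85), Slc7a5 (0.83), Slc3a2 (0.83), Pck2 (0.80) and N4bp2l1 (0.80). For Ddit3 alone they were Tcf12 (0.91), Lrrtm4 (0.89), Csrnp3 (0.89), Trim66 (0.89) and Kcne1l (0.88), none of them on the pathway list. Slc3a2, Herpud1, Pycr1, Slc7a11 and Slc7a5 were on the pathway list, and Trim66, Pck2 and N4bp2l1 were not.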

How the data were processed

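The authors deposited raw UMI counts for 27998 genes and 93128 cells, with a table of cell types and cluster numbers that was used as deposited; each matrix column sum equalled the deposited total in all 67050 cells used. Per the submitters' processing notes, Cell Ranger 1.2.1 and the build mm10 were named; filters on cells are not given in the sources used here. A further 26078 cells carried library names outside the 6 samples and were not used. The members and lists were chosen with earlier results of these data known.

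UMI counts were summed per library and cell type, filtered (filterByExpr), TMM-scaled and given to the quasi-likelihood test of edgeR 4.0.16 (R 4.3.3), 6 libraries in 1 fit, with Benjamini-Hochberg adjustment over all genes tested; called means an adjusted p under 0.05. The standard error (SE) came from the fit's F. Ganglion minus progenitor differences of log2 CPM (prior count 2) were fitted with limma 3.58.1. Tests were two-sided; exact permutations of 2 against 2 libraries allow no p below 0.33 and were not used. The fits were tested on simulated data. Libraries held 22463515 to 66594431 UMIs. Intervals are 95% Wilson intervals and the floor is 3 counts, both for counting error only. Genes named were all members, per list and contrast up to 3 called genes at each end of the log2 fold changes whose libraries did not overlap, of which those described are given, and the 5 most like genes. Positions are from GENCODE M21 (GRCm38), which need not be the annotation counted against; the strand setting of the counting is not given. Alternatives were RLE scaling, DESeq2 1.42.0, no count filter, a replicate block, only the 4 libraries compared, Scrublet doublets left out (8% per library, scanpy 1.11.5), counts thinned to the smallest total, cells under 1000 UMIs left out, neurogenic cells as the reference, a prior count of 0.5 and each library left out. The removal of shared barcodes and edgeR with a library term were chosen after seeing the data.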

Additional observations from a re-analysis of the deposited data

Results flagged for a closer look

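For 4 members the 4 Atoh7 null libraries all lay above both Bax mutant libraries in ganglion cells and all lay below them in another cell type. In ganglion cells alone, 31.6% of the 10586 genes tested lay above. The share of genes meeting both conditions was not computed, and nothing is read from the count of members. The difference between cell types was not tested, since the members were chosen on the ganglion cell values. In log2 ratios of mean CPM, Atf3 stood at -0.744 in progenitors and -0.79 in cones, against 5.78 in ganglion cells. Ddit3 stood at -0.576 in cones, against 1.68 in ganglion cells, and Chac1 at -1.17 in cones, against 4.20. Nupr1 stood at -0.454 in horizontal cells, where its level was highest, against 4.62 in ganglion cells.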

How the results depend on the processing

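The 4 members past the threshold in ganglion cells for double mutant minus Atoh7 mutant were 1 to 5 with a library left out, the 1 without Atoh7 mutant replicate 2. The labels' replicate numbers gave correlations of deviations of 0.0517, 0.153 and 0.0296 and share only a number; with them as a replicate block 6 members passed it. The 1 call in the other cell types was 0 with DESeq2, no filter, only the 4 libraries compared, doublets left out, thinned counts, cells under 1000 UMIs left out and shared barcodes removed, and 0 to 1 with a library left out. The 8 lower calls in other types against the Bax mutant in the double mutant were 4 with DESeq2 and 4 to 7 with a library left out (4 without Bax mutant replicate 1, 5 without replicate 2). The 8 pathway genes called were 4 with DESeq2, 5 with only the 4 libraries compared and 1 to 10 with a library left out (5 without Atoh7 mutant replicate 1, 1 without replicate 2). The 0 members called in the ganglion minus progenitor change were 4 in edgeR with the library as a term. Within the Bax mutant, Slc7a3, whose value depends on the prior count, reversed from -1.27 to 0.00857 (limma adjusted p = 0.987) with neurogenic cells as the reference. The causes of these changes were not tested. Depth limits Atf3, Slc7a3 and Trib3 outside ganglion cells, where their UMIs were few.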
